A study of Homo sapiens with 4 samples.

Results

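The 46 genes described here encode the proteins that copy DNA and drive entry into S phase, from the *MCM* helicase to the enzymes that make deoxynucleotides. They were taken as a given list of gene symbols, matched to Entrez gene identifiers, and not selected by a value in these libraries. The list was chosen with earlier results of these data known. All 46 were found among the 46660 gene identifiers of the deposited table. Counts were summed over the linear RNAs of each gene, which came to 355 RNAs in all and between 2 and 24 per gene.

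The libraries came from U87MG and U251MG, established human glioblastoma cell lines, in which *FLI1*, a transcription factor of the ETS family, was knocked down. In each line, control cells carried the empty lentiviral vector pGreen, also labelled shControl, and the knockdown cells carried an shFLI1 lentivirus. Both arms were infected with polybrene and selected with puromycin, and both were collected as mixed stable cells, not as single clones. The labels do not say which hairpin the shFLI1 libraries carry, and no time after infection is given for them. There was 1 library per arm in each line, so that a difference within a line had no replicate error and was set against counting error alone. Reads copied by PCR are not independent molecules, and the intervals below cover counting error only. In bulk RNA, fewer cells in S phase and less RNA per cell cannot be told apart.

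A replication origin is licensed in G1 when ORC1, CDC6 and CDT1 load the MCM2-7 ring onto DNA, and it fires when CDC45 and the GINS proteins join that ring to form the active helicase. DNA polymerase alpha and primase then start each new strand, the RFC complex loads the PCNA clamp, and polymerases delta and epsilon extend the strand. Many of these genes are transcribed at the G1/S boundary by E2F factors once the retinoblastoma protein is phosphorylated, and tumour cells that divide fast transcribe them highly.

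Total counts were 12229780 and 21250153 in the control and shFLI1 libraries of U87MG, and 18108612 and 28891055 in those of U251MG. The shFLI1 library was the deeper one in both lines. *FLI1* had 107 and 52 counts in the control and shFLI1 libraries of U87MG, and 216 and 111 in those of U251MG, which were log2 fold changes of -1.95 and -1.68. Among markers of astrocytic and glioma cells, *VIM*, *CD44*, *SOX2*, *NES* and *GFAP* were detected in the 4 libraries, and *S100B*, *AQP4* and *OLIG2* had at most 11 counts in any library. Some of these markers moved with the knockdown, with log2 fold changes of 1.32 and 2.19 for *GFAP* and 1.39 and 1.202 for *FABP7* (edgeR over both lines, adjusted p = 0.00783 and 0.0168), and of 0.51 and 0.70 for *NES* (edgeR, adjusted p = 0.107). Others moved less or the other way. *SOX2* had 0.43 in U87MG and 0.31 in U251MG, *CD44* 0.13 and 0.29, *VIM* -0.05 and 0.08, and *SOX9* -0.16 and -0.04. The part of these marker shifts in the values of the replication genes was not tested. The summed level of the leukocyte markers lay between 0.729 and 1.24 CPM (counts per 1000000 counts of the scaled library), that of the epithelial markers between 0.0334 and 0.349 CPM, and that of the endothelial markers between 0.841 and 5.94 CPM. The neuron markers summed to 25.2 and 16.4 CPM in the control and shFLI1 libraries of U87MG and to 36.4 and 30.5 CPM in those of U251MG, with log2 fold changes of -0.62 and -0.31 for *SYT1* and -0.78 and -0.65 for *SNAP25*. *GAD1*, another neuron marker, had -0.52 in U87MG and 0.11 in U251MG. The summed level was between 3353.0 and 4508.6 CPM for the replication genes.

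Most of the replication genes had lower counts in shFLI1 cells than in control cells of U251MG after TMM scaling, and in U87MG the direction of the list depended on the scaling. The median log2 fold change of the 46 genes was -0.18 in U87MG and -0.35 in U251MG, beside 0.06 and 0.04 over all genes tested in the same lines. In U87MG the median of the 46 became -0.02 with scaling to total counts and turned to 0.02 on FPKM (log2 of FPKM plus a pseudocount of 1, as for all FPKM fold changes below), while in U251MG it stayed below 0 in both. *CDT1*, the licensing factor, *RRM2*, the small subunit of ribonucleotide reductase, the transcription factors *E2F1* and *E2F2*, and *POLA2*, a subunit of polymerase alpha, fell in the test over both lines. The lower and upper quartiles of the 46 genes were -0.35 and 0.06 in U87MG, and -0.53 and -0.24 in U251MG. The changes were small in size, and none of the 46 genes passed 2-fold in U87MG.

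**Figure D1:**
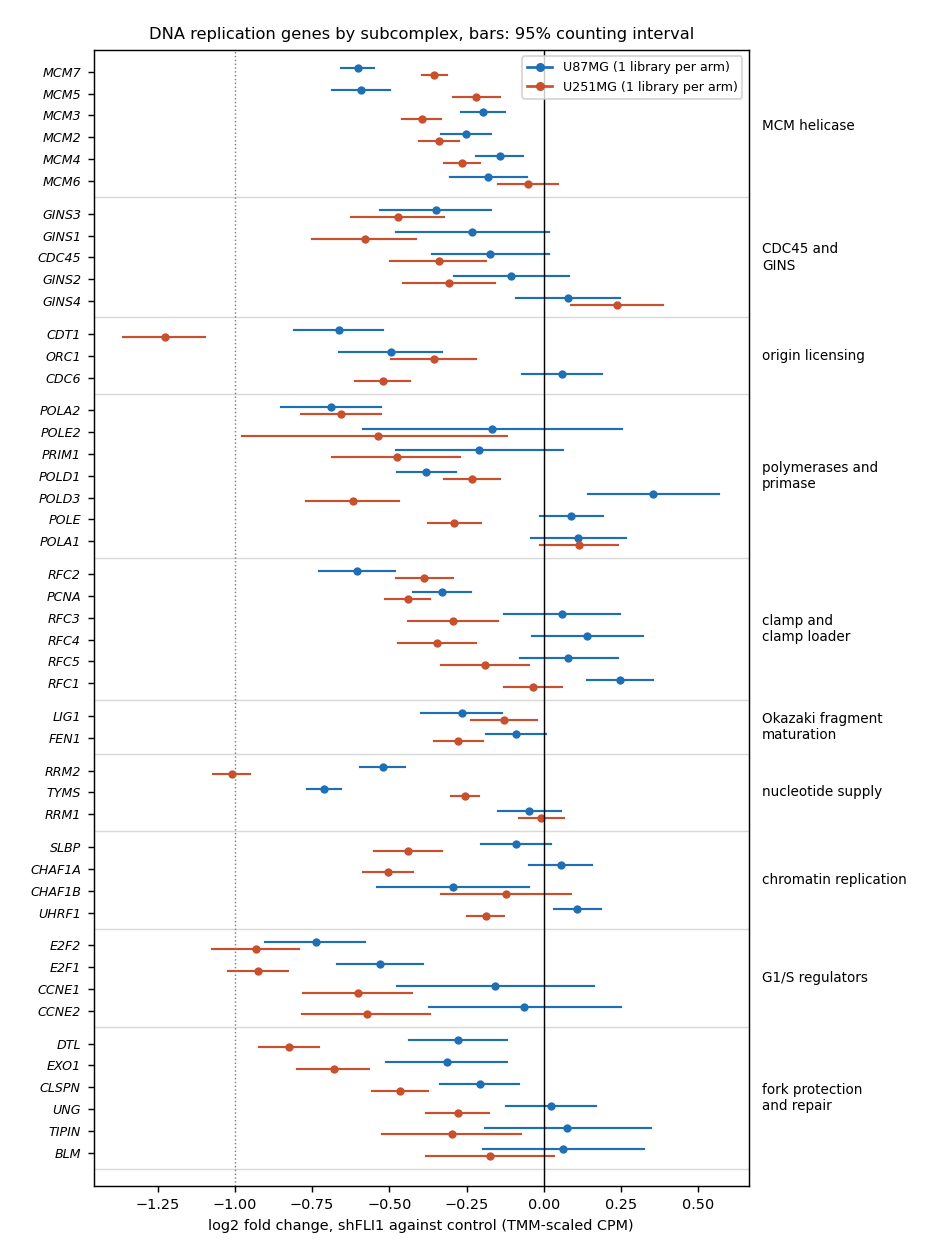
Log2 fold change of each of the 46 replication genes, shFLI1 against control, grouped by subcomplex, with U87MG in blue and U251MG in red. Points are fold changes of TMM-scaled CPM from 1 library per arm, bars are 95% counting intervals, the solid line marks 0 and the dotted line marks 2-fold lower. In U251MG, 44 of 46 points lie below 0, and in U87MG 32 of 46.

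A gene was called lower or higher beyond counting error where the 95% Clopper-Pearson interval of its log2 fold change lay wholly below or above 0. An interval narrows as counts rise, so such calls depend on depth. Replication genes had 77 to 11510 counts per library, while all genes tested include those with 10 counts in 1 library. The backgrounds were not matched for abundance, which holds for every share by interval given below. In U87MG, 22 of 46 replication genes (47.8%) were lower by that rule, against a background of 23.3% of all genes tested. Only 3 (6.52%) were higher, against a background of 26.7%. With scaling to total counts these numbers became 14 lower and 13 higher, since that scaling moved the median of all genes in U87MG from 0.06 to 0.22. The shares of all genes called under that scaling were not computed. Under TMM and under total counts alike, 36 of the 46 genes lay below the median of all genes in U87MG. On FPKM, which also moves genes against each other, 22 of the 46 genes were below 0 in U87MG, and 29 or 31 were below the median of all genes with pseudocounts of 1 or 0.1.

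In U251MG, 39 of 46 genes (84.8%) were lower beyond counting error, against a background of 23.1%, and 1 (2.17%) was higher, against 24.6%. In both lines at once, 20 genes (43.5%) were lower, against a background of 12.2%, and none was higher, where 11.8% of all genes tested in both were. Those 20 were *MCM2*, *MCM3*, *MCM4*, *MCM5*, *MCM7*, *GINS3*, *ORC1*, *CDT1*, *POLA2*, *POLD1*, *PCNA*, *RFC2*, *LIG1*, *RRM2*, *TYMS*, *E2F1*, *E2F2*, *DTL*, *CLSPN* and *EXO1*. A further 17 were lower in U251MG with an interval spanning 0 in U87MG, and 2, *MCM6* and *CHAF1B*, were lower in U87MG with an interval spanning 0 in U251MG. The intervals of *POLA1*, *RRM1* and *BLM* spanned 0 in both lines. Intervals on opposite sides of 0 in the 2 lines were found for *POLD3* and *UHRF1*, 2 of 46 genes, where 7.29% of all genes tested in both had them. These counts are after TMM scaling. With scaling to total counts *MCM3*, *MCM4*, *LIG1*, *DTL*, *CLSPN* and *EXO1* were no longer lower in both lines. *GINS4* and *POLA1* were then higher in both. Shares of all genes were not computed under that scaling, nor for the classes above with an interval spanning 0.

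Past the 2-fold threshold the list did not stand out. The backgrounds here also hold genes with few counts, whose fold changes spread more by counting error. *CDT1* and *RRM2* were more than 2-fold lower in U251MG, which is 4.35% of the list against a background of 4.19%. With scaling to total counts *CDT1* alone passed, as *RRM2* came to -0.94, and on FPKM neither did, at -0.80 for *CDT1* and -0.93 for *RRM2*. None was more than 2-fold lower in U87MG, where the background was 4.45%, and none was more than 2-fold higher in either line, where the backgrounds were 10.0% in U87MG and 5.57% in U251MG. More than 1.5-fold lower were 7 genes in U87MG (15.2%, background 9.92%) and 9 in U251MG (19.6%, background 8.85%). None was more than 1.5-fold higher, where the backgrounds were 18.6% in U87MG and 13.0% in U251MG.

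The 4 libraries were also fitted together with edgeR's quasi-likelihood test, with the cell line as a block, so that the spread came from how far the 2 lines differed in their response, with 1 residual degree of freedom. By the Benjamini-Hochberg adjusted p of this test over 16649 genes, at a threshold of 0.05, 5 of the 46 genes (10.9%) fell, against a background of 2.14%, and none rose, against a background of 0.919%. In either direction 3.06% of all genes passed. At an unadjusted p under that threshold 17 of the 46 were lower (37.0%) and none higher, where 16.5% of all genes passed in either direction.

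Origin licensing and the switch into S phase are both represented among the 5 genes that fell. *CDT1* (Entrez 81620) had 727 counts in U87MG control, 891 in U87MG shFLI1, 1122 in U251MG control and 804 in U251MG shFLI1, which scaled to 63.5, 40.1, 62.9 and 26.8 CPM. Both shFLI1 libraries lay below both control libraries, and shFLI1 cells kept 63.2% of the control level in U87MG cells and 42.8% in U251MG cells. Over both lines the edgeR log2 fold change of *CDT1* was -0.96 (adjusted p = 0.0213). On FPKM, which weighs the RNAs of a gene by their length, *CDT1* stood at 24.7, 23.0, 25.8 and 14.4, and its log2 fold change shrank to -0.10 in U87MG and -0.80 in U251MG.

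*E2F2* (Entrez 1870) and *E2F1* (Entrez 1869) encode activating E2F factors, which drive the transcription of S phase genes. *E2F2* had 578 and 672 counts in the control and shFLI1 libraries of U87MG and 873 and 768 in those of U251MG, or 50.5, 30.2, 49.0 and 25.6 CPM. Its control libraries were alike, both shFLI1 libraries were lower, and its log2 fold change was -0.74 in U87MG, -0.93 in U251MG and -0.85 over both lines (edgeR, adjusted p = 0.0192). *E2F1* had 737 and 991 counts in U87MG and 1860 and 1645 in U251MG, or 64.4, 44.6, 104 and 54.9 CPM. The U251MG control library held the highest level of *E2F1*, and the shFLI1 library of U251MG lay below the control of U87MG. The log2 fold change of *E2F1* was -0.53 in U87MG, -0.92 in U251MG and -0.75 over both lines (edgeR, adjusted p = 0.0371). On FPKM the value in U87MG shrank to -0.14.

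*RRM2* (Entrez 6241) had 2586 and 3497 counts in U87MG and 5104 and 4253 in U251MG, or 226, 157, 286 and 142 CPM. Its level fell to 69.6% of control in U87MG and to 49.6% in U251MG, with an edgeR log2 fold change of -0.78 over both lines (adjusted p = 0.0432). *POLA2* (Entrez 23649), the regulatory B subunit of polymerase alpha, had 577 and 695 counts in U87MG and 947 and 1009 in U251MG, or 50.4, 31.2, 53.1 and 33.7 CPM. It changed by nearly the same amount in the 2 lines, with log2 fold changes of -0.69 and -0.66, and by -0.69 over both (edgeR, adjusted p = 0.0392). These 5 calls depended on the scaling. With TMM over all identifiers, as used for fold changes within a line, only *CDT1* and *E2F2* passed (edgeR, adjusted p = 0.0408 and 0.0339). *POLA2*, *E2F1* and *RRM2* then had edgeR adjusted p of 0.0582, 0.0594 and 0.069. None of the 5 passed when counts were scaled to totals, where the edgeR adjusted p lay between 0.0657 and 0.11, although all 5 kept their direction there.

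**Figure D2:**
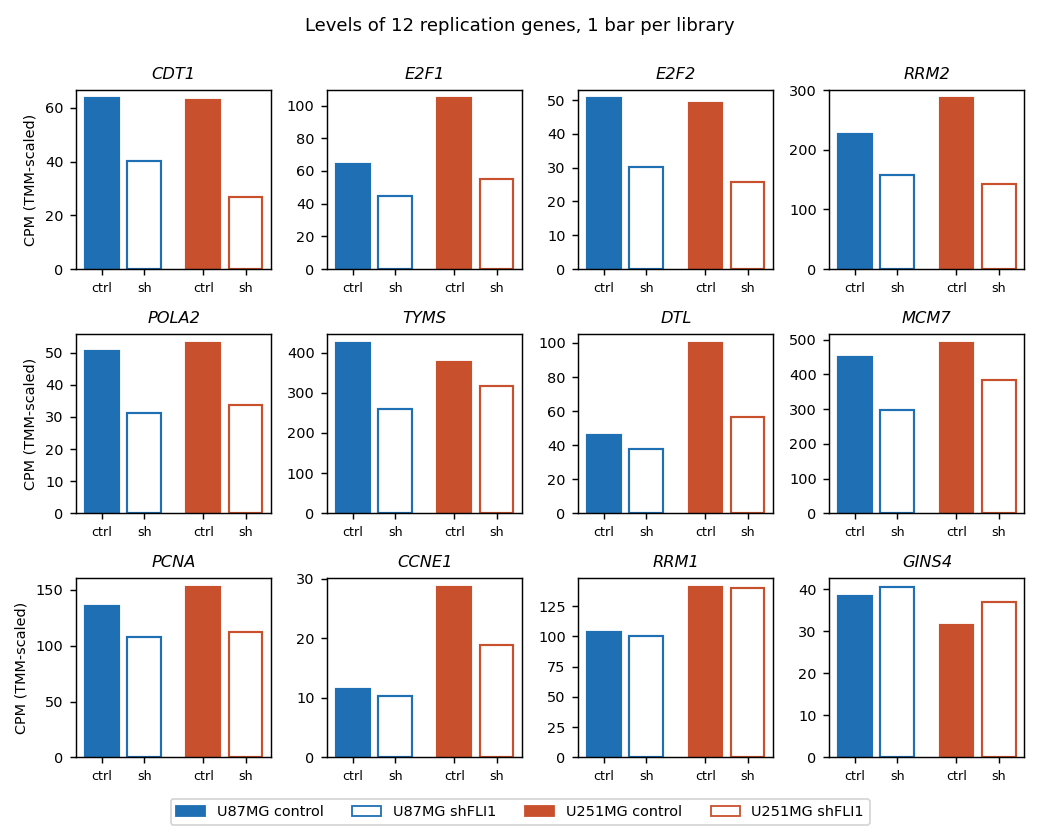
TMM-scaled CPM of 12 replication genes in the 4 libraries, 1 bar per library, with control libraries filled and shFLI1 libraries open, each panel on its own scale from 0. *CDT1*, *E2F1*, *E2F2*, *RRM2* and *POLA2* are lower in both open bars than in both filled bars, the bars of *RRM1* differ little within a line, and within each line the open bar of *GINS4* is the taller one.

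Promoter stretches of 6 genes are shown because many of the replication genes hold an E2F motif, which was not used to choose the list. They come from the RefSeq promoter windows of GRCh38.p14, which reach from 250 bases before to 50 after a transcript start, and 41 of the 46 genes had a window. *MCM4*, *MCM5*, *POLD3*, *GINS4* and *CCNE2* had none. Capitals mark an E2F motif on either strand, searched as TTTCCCGC, TTTGGCGC, TTTCGCGC or TTTGCCGC. Matches of different motifs were counted separately and may share bases. Each stretch is printed 5′ to 3′ on the strand of the gene, with up to 30 bases on either side of the capitals and none past the start of transcription. Of the genes given in 4 libraries by the rule stated below, those holding a match before the start were ranked by mean log2 fold change. The 6 lowest are shown, so the stretches were chosen by the values of their genes. Stretches of genes that fell less or rose, such as *MCM7*, *PCNA* and *POLA1*, are not shown. The first 4 belong to genes called in the test over both lines. *DTL* had its larger change in U251MG and *TYMS* in U87MG.
CDT1: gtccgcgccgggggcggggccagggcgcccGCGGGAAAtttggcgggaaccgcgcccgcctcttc
E2F2: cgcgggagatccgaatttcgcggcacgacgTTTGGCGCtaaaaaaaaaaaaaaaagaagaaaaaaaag
E2F1: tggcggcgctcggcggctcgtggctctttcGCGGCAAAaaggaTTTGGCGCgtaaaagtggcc
POLA2: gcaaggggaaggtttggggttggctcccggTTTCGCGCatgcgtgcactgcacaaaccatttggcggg
DTL: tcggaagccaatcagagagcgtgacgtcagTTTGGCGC
TYMS: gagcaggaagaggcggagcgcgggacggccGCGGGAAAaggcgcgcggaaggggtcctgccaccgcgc

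The stretches lie at chr16:88803724-88803788 (plus strand) for *CDT1*, chr1:23531238-23531305 (minus strand) for *E2F2*, chr20:33686386-33686448 (minus strand) for *E2F1*, chr11:65261879-65261946 (plus strand) for *POLA2*, chr1:212035710-212035747 (plus strand) for *DTL* and chr18:657584-657651 (plus strand) for *TYMS*. The marked letters end 27 bases before the start of *CDT1*, 34 before that of *E2F2*, 12 before that of *E2F1* and 0 before that of *DTL*. *E2F1*, which encodes an E2F factor itself, held 2 of these matches in its own window.

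An E2F match was present in 25 of the 41 genes with a window (61.0%), against 3.99% of 27305 genes with one, where a gene with several windows counted once. The 27305 genes were not limited to those tested for a change here. Many replication genes are known to be transcribed by E2F factors, as said above, so a high share was not a new result of these data. In the list of 73 other replication genes described below, 25.4% of the 59 genes with a window had an E2F match. The share in the mitosis list, also described below, lay between those of the other replication genes and of all genes. The ETS letters CCGGAAGT, which belong to the family of factors that *FLI1* is part of, were present in 3 of 41 (7.32%), those of *GINS3*, *RFC4* and *POLA1*, against 4.95% of all genes with a window. The letters of the cell cycle homology region (TTTGAA or TTCGAA), known from genes of G2 and mitosis, were present in 3 of 41 (7.32%) against 19.5%, and CCAAT in 58.5% against 39.7%. CCAAT was also present in 61.0% of the other replication genes and 80.0% of the mitosis genes with a window. Its higher share than in all genes was therefore not particular to this list. A match is a string of letters in a window and does not show that a factor binds there. The 25 genes with an E2F match had medians of -0.23 and -0.40 in the 2 lines on the log2 scale, and the 16 with a window and no match had -0.12 and -0.34. *MCM6* had the most E2F matches, 4, with log2 fold changes of -0.18 and -0.05, while *RRM2* and *RFC2* had none.

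**Figure D3:**
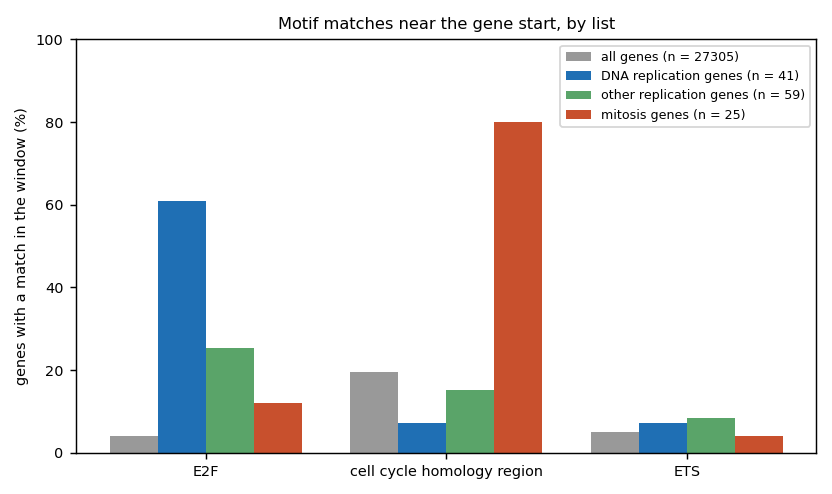
Share of genes, in percent, with at least 1 match to the E2F, cell cycle homology region or ETS letters in their RefSeq promoter window, for all genes, the replication genes, other replication genes and mitosis genes. The E2F bar stands at 61.0% for the replication genes and 3.99% for all genes, and the cell cycle homology bar at 80.0% for the mitosis genes.

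Within origin licensing, *ORC1*, the ATPase of the origin recognition complex, was lower by a like amount in both lines, with log2 fold changes of -0.50 and -0.36. *CDC6*, which works beside ORC1 to load the helicase, went differently. It stood at 63.8 and 66.4 CPM in the control and shFLI1 libraries of U87MG and at 105 and 73.1 CPM in those of U251MG. The U251MG control library stood above the other 3, and the log2 fold change of *CDC6* was 0.06 in U87MG, with an interval from -0.07 to 0.19, and -0.52 in U251MG.

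After TMM scaling all 6 *MCM* genes had log2 fold changes below 0 in both lines, with medians of -0.22 in U87MG and -0.30 in U251MG. The MCM proteins form one ring with 1 copy of each, and their RNA levels did not change by one common amount. *MCM7* was the most abundant of them and had 449, 296, 491 and 384 CPM in U87MG control, U87MG shFLI1, U251MG control and U251MG shFLI1. Both shFLI1 libraries lay below both controls, and its log2 fold change was -0.60 in U87MG and -0.35 in U251MG. *MCM5* had -0.59 and -0.22, and its intervals in the 2 lines did not overlap. *MCM3* had the reverse order, -0.20 and -0.40, and *MCM2* had -0.25 and -0.34. *MCM4* had -0.14 and -0.26, but in U87MG its sign turned with scaling to total counts and on FPKM. *MCM6* had the smallest mean change over the 2 lines, with 73.0, 64.4, 76.4 and 73.7 CPM, and the interval of its log2 fold change in U251MG ran from -0.15 to 0.05. With scaling to total counts the sign of *MCM6* in U251MG turned, and its edgeR log2 fold change over both lines was 0.002.

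The CDC45 and GINS genes, whose products turn the loaded ring into an active helicase, had medians of -0.17 in U87MG and -0.34 in U251MG, and on FPKM the U87MG median turned to 0.05. *GINS3* stood at 36.8, 28.8, 37.1 and 26.7 CPM in the same order of libraries. Its controls were alike and its shFLI1 libraries were both lower, with log2 fold changes of -0.35 and -0.47. *CDC45*, *GINS1* and *GINS2* had -0.17, -0.23 and -0.11 in U87MG with intervals that spanned 0, and -0.34, -0.58 and -0.31 in U251MG with intervals below 0. *GINS4* was the exception. It stood at 38.4, 40.6, 31.4 and 37.0 CPM, with log2 fold changes of 0.08 (interval -0.09 to 0.25) in U87MG and 0.24 (interval 0.09 to 0.39) in U251MG, the only replication gene higher beyond counting error in U251MG.

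The polymerase and primase genes had medians of -0.17 and -0.48, and the U87MG median turned to 0.24 on FPKM. The subunits of polymerase alpha moved apart. *POLA1*, the catalytic subunit, stood at 44.5, 48.0, 45.0 and 48.8 CPM beside the fall of *POLA2* given above, and its log2 fold change of 0.11 in each line had an interval that spanned 0. On FPKM *POLA1* went from 17.9 to 34.1 in U87MG, a larger difference than in counts, and it has 24 RNAs in the table, more than any other gene of the list. *PRIM1*, the catalytic subunit of primase, had -0.21 in U87MG and -0.48 in U251MG.

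*POLD1*, the catalytic subunit of polymerase delta, was lower in both lines, at -0.38 and -0.23. *POLD3*, an accessory subunit of the same enzyme, had 259 and 643 counts in U87MG and 693 and 757 in U251MG, or 22.6, 28.9, 38.9 and 25.3 CPM. It was higher in U87MG, at 0.35 (interval 0.14 to 0.57), and lower in U251MG, at -0.62 (interval -0.77 to -0.47). The control library of U87MG had the lowest level of *POLD3* and that of U251MG the highest. *POLE*, the catalytic subunit of polymerase epsilon, stood at 101, 108, 107 and 87.7 CPM, with -0.29 in U251MG and an interval spanning 0 in U87MG. *POLE2*, its second subunit, had the fewest counts of the list, between 77 and 133 per library, and its values of -0.17 and -0.54 had the widest intervals.

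The clamp *PCNA* was lower in both lines, with 136, 108, 153 and 113 CPM and log2 fold changes of -0.33 (-0.18 on FPKM) and -0.44. Of the RFC clamp loader genes, *RFC2* alone was lower beyond counting error in U87MG, with 83.7, 55.0, 93.8 and 71.7 CPM and log2 fold changes of -0.60 (-0.36 on FPKM) and -0.39 (-0.23 on FPKM). *RFC1*, the large subunit, stood at 89.7, 107, 83.6 and 81.6 CPM. It was higher in U87MG at 0.25 (interval 0.14 to 0.36) and had an interval spanning 0 in U251MG. *RFC3*, *RFC4* and *RFC5* had 0.06, 0.14 and 0.08 in U87MG, with intervals spanning 0, and -0.29, -0.35 and -0.19 in U251MG, with intervals below 0. The median of clamp and loader was 0.07 in U87MG and -0.32 in U251MG. After TMM scaling this was the one subcomplex with a median above 0. With scaling to total counts or on FPKM other subcomplexes also had medians above 0 in U87MG.

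For Okazaki fragments, the short pieces of the lagging strand, *FEN1*, the flap nuclease, stood at 115, 108, 127 and 104 CPM and *LIG1*, the ligase, at 68.1, 56.6, 66.4 and 60.6 CPM. *LIG1* was lower in both lines, at -0.27 and -0.13, and *FEN1* in U251MG, at -0.28.

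Nucleotide supply was uneven. *TYMS*, thymidylate synthase, which makes dTMP, had 4863, 5770, 6727 and 9469 counts, or 425, 259, 377 and 316 CPM. Its log2 fold change was -0.71 in U87MG and -0.25 in U251MG, and the intervals did not overlap, the reverse of *RRM2*. *RRM1*, the large subunit of ribonucleotide reductase, stood at 104, 100, 141 and 140.0 CPM. Its intervals ran from -0.15 to 0.06 and from -0.08 to 0.06, so that *RRM1* differed little in level while its partner *RRM2*, the subunit whose level follows S phase, fell.

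Among the genes that rebuild chromatin behind the fork, *CHAF1A* and *CHAF1B*, subunits of the histone chaperone CAF-1, had their lower values in different lines, -0.50 in U251MG for *CHAF1A* (0.05 in U87MG) and -0.29 in U87MG for *CHAF1B* (-0.12 in U251MG). *SLBP*, which binds histone mRNA, stood at 85.9, 80.7, 68.2 and 50.3 CPM, with -0.44 in U251MG and -0.09 in U87MG. *UHRF1*, which brings maintenance methylation to new DNA, stood at 183, 198, 207 and 182 CPM and went in opposite directions, 0.11 (interval 0.03 to 0.18) in U87MG and -0.19 (interval -0.25 to -0.13) in U251MG. The median of these genes was -0.02 in U87MG, 0.14 with scaling to total counts and 0.12 on FPKM, and -0.31 in U251MG.

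The G1/S regulators had the lowest median in U251MG, -0.76, beside -0.34 in U87MG. The E cyclins, which activate CDK2 at the G1/S boundary, contributed in U251MG. *CCNE2* stood at 11.8, 11.3, 20.3 and 13.6 CPM and *CCNE1* at 11.4, 10.3, 28.6 and 18.8 CPM. Their log2 fold changes in U251MG were -0.57 and -0.60, with intervals in U87MG that spanned 0. For both cyclins the 2 libraries of U251MG stood above the 2 of U87MG.

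Of the fork protection and repair genes, *DTL*, the substrate receptor of the ubiquitin ligase that degrades CDT1 in S phase, stood at 45.9, 37.9, 100 and 56.5 CPM. It was lower in both lines, at -0.28 (-0.59 on FPKM) and -0.82, and its edgeR adjusted p over both lines was 0.117. *CLSPN*, the checkpoint mediator claspin, stood at 70.2, 60.8, 98.6 and 71.4 CPM with -0.21 and -0.47, and *EXO1*, a nuclease of mismatch repair, had -0.31 and -0.68. The value of *EXO1* in U87MG was 0.01 on FPKM. *UNG*, which removes uracil from DNA, and *TIPIN*, of the fork protection complex, had -0.28 and -0.30 in U251MG with intervals spanning 0 in U87MG. *BLM*, a helicase of recombination, stood at 16.1, 16.8, 18.3 and 16.2 CPM. The median of the group was -0.09 in U87MG, which became 0.07 with scaling to total counts, and -0.38 in U251MG.

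Levels between genes were compared on FPKM, which allows for length. *TYMS* was highest in every library (295, 201, 276 and 245 FPKM), followed by *MCM7* (193, 142, 223 and 184 FPKM) and *PCNA* (125, 110, 148 and 115 FPKM). *POLE2*, between 2.94 and 5.63 FPKM, and *BLM*, between 4.01 and 6.48, held ranks from 44 to 46 of 46 in every library. *MCM6* was the lowest of the ring genes, between 19.2 and 23.7 FPKM. The order at the top was the same in control and shFLI1 cells. *CDT1* went from rank 21 of 46 to rank 31 in U251MG, and *RRM2* from rank 4 to rank 11.

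The 2 lines were set against each other in the controls and in their response. In the control libraries, *CCNE1*, *DTL* and *EXO1* were more than 2-fold higher in U251MG than in U87MG, with log2 differences of 1.31, 1.12 and 1.09. These 3 of 46 stood beside a background of 11.0% of all genes tested, and no replication gene was more than 2-fold lower, where 5.77% of all genes were. In the response, 33 of 46 genes (71.7%) had a lower log2 fold change in U251MG than in U87MG, against a background of 52.4%. For 18 genes (39.1%) the intervals of the 2 lines did not overlap and U251MG was the lower, against a background of 13.6%, and for *MCM5*, *MCM7*, *RFC2* and *TYMS* (8.7%) U251MG was the higher, against 13.9%. Each line had 1 library per arm, and whether this difference goes beyond the spread between cultures was not tested.

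**Figure D4:**
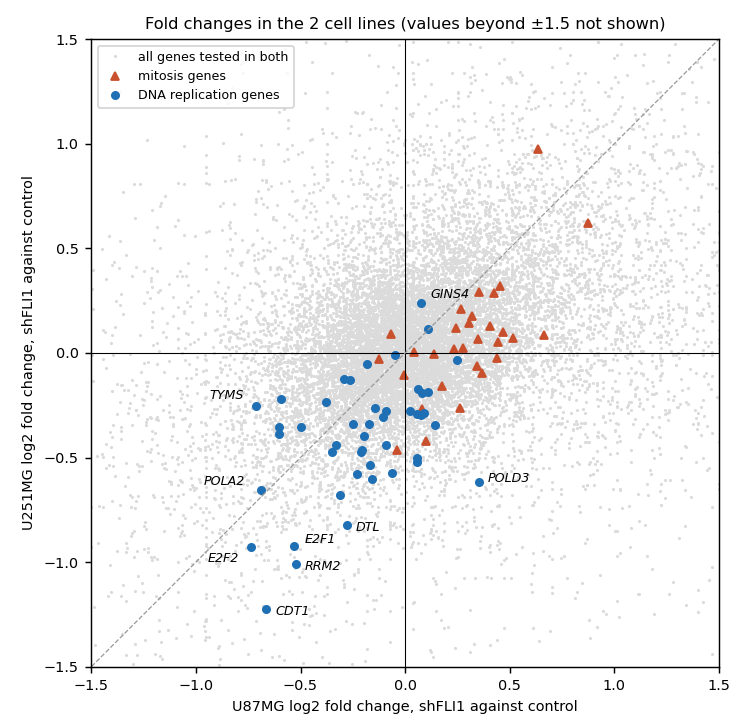
Log2 fold change in U87MG (x axis) against U251MG (y axis), shFLI1 against control, for the 46 replication genes (blue points), 30 mitosis genes (red triangles) and all genes tested in both lines (grey), with 1 library per arm. The dashed line marks equal values, and 33 of 46 blue points lie below it. *POLD3*, at 0.35 and -0.62, lies apart from the others.

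A list of 73 other genes of DNA replication had medians of -0.05 in U87MG and -0.13 in U251MG on the log2 scale. In U87MG 30 of the 73 (41.1%) were lower beyond counting error and 17 (23.3%) higher, beside the 47.8% and 6.52% of the 46 genes and the 23.3% and 26.7% of all genes tested. In U251MG 38 (52.1%) were lower and 14 (19.2%) higher, beside 84.8% and 2.17% of the 46 genes and 23.1% and 24.6% of all genes. No test of the difference between the 2 lists was made. In the other list *SAMHD1*, a phosphohydrolase that breaks down dNTPs, had 2618 and 2113 counts in U87MG and 7630 and 3384 in U251MG, with log2 fold changes of -1.27 and -1.92. *CDKN1A*, which encodes the CDK inhibitor p21, had 1310 and 1031 counts in U87MG and 2457 and 1469 in U251MG, with -1.30 and -1.49. The former removes nucleotides and the latter can hold cells in G1. Both fell over both lines (edgeR, adjusted p = 0.00319 and 0.00142), as did *ASF1B*, a histone chaperone of replicating cells, at -0.57 and -0.80 (edgeR, adjusted p = 0.0343). *ATAD5*, which unloads PCNA, was more than 2-fold higher in U87MG, at 1.04, and had 0.08 in U251MG.

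Genes of mitosis, which are transcribed later in the cell cycle, did not go with the S phase genes. The median over the 30 mitosis genes was 0.31 in U87MG and 0.06 in U251MG on the log2 scale. In U87MG 23 of 30 (76.7%) were higher beyond counting error, against 26.7% of all genes tested. In U251MG 11 of 30 (36.7%) were higher, against 24.6%, and 6 were lower (20.0%), against 23.1%. In both lines at once, 10 of 30 (33.3%) were higher, against 11.8%, and none was lower, against 12.2%. *CENPE* and *CENPF*, proteins of the kinetochore, rose over both lines, at 0.64 and 0.98 for *CENPE* and 0.87 and 0.62 for *CENPF* (edgeR, adjusted p = 0.0335 and 0.0394). The medians of this list stayed above 0 in both lines under each scaling of the counts and on FPKM, while that of the replication genes in U87MG was 0.02 on FPKM. The share of cells in each phase was not measured in these libraries, and its part in the result was not tested.

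**Figure D5:**
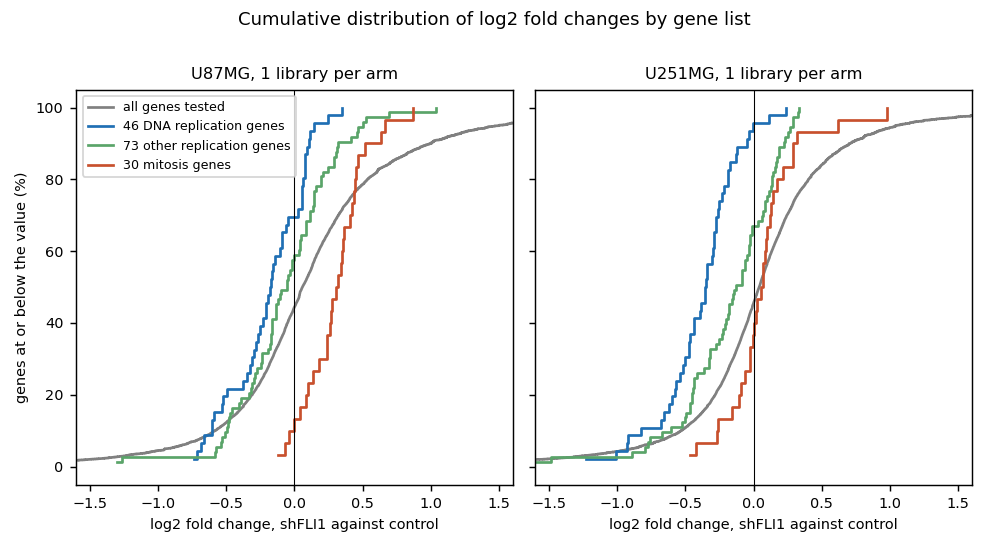
Cumulative share of genes, in percent, at or below each log2 fold change (x axis, shFLI1 against control) in U87MG and U251MG, for all genes tested (grey), the 46 replication genes (blue), 73 other replication genes (green) and 30 mitosis genes (red). The blue curve lies left of the grey one near the middle in both panels, with medians of -0.18 and -0.35, and the red curve lies right of it in U87MG, with a median of 0.31.

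Of the lists described here, that of interferon-stimulated genes had the medians farthest from 0. Of its 26 genes, 25 could be tested, and all 25 were lower beyond counting error in both lines, with median log2 fold changes of -2.38 and -3.39. *SAMHD1* is itself known to respond to interferon. Whether the interferon genes have a part in their change was not tested.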

How the data were processed

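Total RNA of U87MG and U251MG cells was made into mRNA libraries, 1 of control and 1 of shFLI1 cells per line. The authors trimmed the reads, used HISAT2 for alignment to GRCh38 (GRCh38.p13 per the labels) and StringTie for FPKM. The deposited estimated counts are not normalized, and the tool behind them is not given in the sources used here. Estimated counts can be split between RNAs of similar sequence. FPKM was used as deposited, scaled by the authors to transcript length and mapped fragments. A further 10 value columns, of TPM and of means, and 31346 circular RNAs were not used.

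The estimated counts of linear RNAs were summed per gene identifier and rounded. Fold changes within a line were computed from TMM-scaled CPM with a prior count of 2 (edgeR 4.0.16, R 4.3.3), where 1 library of the line had 10 or more counts. Clopper-Pearson intervals of 95% (SciPy 1.17.1) came from the counts and scaled library sizes. For the effect over both lines, the quasi-likelihood test of edgeR was run on genes kept by filterByExpr, with TMM on those genes and cell line as a block, and p-values were adjusted by the Benjamini-Hochberg method over all of them. The arms of a line were separate cells with different vectors, and nothing says that either arm was infected more than once for these libraries. These p-values rest on the spread between the 2 lines, moderated by that of all genes tested. The scripts were tested on simulated data. DESeq2 1.42.0, other scalings, filters and prior counts, FPKM with pseudocounts of 1 and 0.1, and thinned libraries were alternatives. Motifs were searched on both strands of RefSeq promoter windows.

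The 46 genes, the comparison lists and the tests were chosen with earlier results of these data known. All 46 genes are named. Values in the 4 libraries are given for those past 2-fold, those called over both lines and, in each subcomplex, the most abundant gene and those with the lowest and highest mean log2 fold change, and of other replication genes those past 2-fold or called are named. Other genes with values in all libraries were chosen after their values were seen.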

Additional observations from a re-analysis of the deposited data

Results flagged for a closer look

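*POLD3*, an accessory subunit of polymerase delta, and *UHRF1*, which brings maintenance methylation to new DNA, moved in opposite directions in the 2 cell lines, each beyond counting error. The log2 fold change of *POLD3* was 0.35 in U87MG cells and -0.62 in U251MG cells. For *UHRF1* the values were 0.11 and -0.19. With 1 library per arm in each line, the difference between the lines was not tested for either gene. Opposite intervals were found in 7.29% of all genes tested in both lines.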

How the results depend on the processing

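The fold changes within a line rest on 1 library per arm, and no replicate could be left out. Leaving out a cell line would leave no residual degrees of freedom for the test over both lines. The median of the 46 genes in U251MG stayed below 0 under every alternative run. In U87MG it became -0.0164 with scaling to total counts, and 0.0154 and 0.0161 on FPKM with pseudocounts of 1 and 0.1, where 29 and 31 of the 46 genes lay below the median of all genes. In U87MG, *MCM4* became 0.0187 with total counts and 0.291 and 0.296 on FPKM, and *EXO1* became 0.0112 and 0.0123 on FPKM. Of 552 values of single genes under alternatives, 41 had another sign than reported, 32 of them in U87MG. For 5 of the 552, the values of *MCM4* and *EXO1* just named, the gene had been lower beyond counting error in that line. A further 136 moved by more than their counting error, and 411 did not. Of 120 subcomplex medians, 8 had another sign, all in U87MG. With a 1.5-fold threshold 7 genes passed in U87MG and 9 in U251MG, all lower. Past 2-fold in U251MG was 1 gene with total counts, and 0 on FPKM with either pseudocount. Alternatives added after seeing the data showed 14 genes lower beyond counting error in U87MG with total counts, a median of -0.23 in U87MG and -0.31 in U251MG from the most abundant RNA of each gene, and 2 genes (*CDT1* and *E2F2*) called over both lines when TMM was computed over all identifiers. In the edgeR test over both lines, total counts called 0 of the 46 genes, with 8 at an unadjusted p under the threshold of 0.05. Without the replicate block, here the cell line, 0 were called and 5 passed unadjusted, and 0 of all genes were called. DESeq2's size factors called 5, a filter of 1 count in any library 6 (*DTL* added), a filter of 100 counts in every library 5 and DESeq2 itself 4, without *POLA2*. Over these alternatives the adjusted p of *CDT1* ranged from 2.92e-06 to 0.995, that of *E2F2* from 9.97e-05 to 0.86, that of *E2F1* from 0.000612 to 1.0, that of *RRM2* from 0.000183 to 0.905 and that of *POLA2* from 0.00412 to 0.861. The number of all genes called ran from 509 as reported to 373 with TMM over all identifiers, 364 with total counts and 1303 with the filter of 1 count. Each cause of these changes was not tested. The 77 to 11510 counts per gene and library limit the precision most for *POLE2*.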
